A study of Mus musculus with 8 samples.

Results

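The cells described here were T cells that carried a rearranged antigen receptor and also RNA of an NK-cell receptor, but not the invariant receptor of NKT cells. They came from mouse liver metastases and were chosen by measured values: receptor contigs and the UMIs (unique molecular identifiers, 1 per captured RNA molecule) of 2 genes. Only cells with 200 or more genes detected and no more than 10% of UMIs from mitochondrial genes entered. The cell's barcode had a beta-chain contig in its mouse's T cell receptor library, the cell had at least 1 UMI of Ncr1 or Klrb1c, and it had no alpha-chain contig that joined TRAV11 or TRAV11D to TRAJ18. The rule found 741 cells, called NK-receptor T cells below, among 7452 cells with a beta chain and 48214 cells in all. Of the other cells with a beta chain, 6506 had no UMI of either receptor gene and are called other T cells, and 205 carried the invariant alpha chain. The NK-receptor T cells numbered 238 and 347 in the Tet2 knockout mice and 82 and 74 in the control mice.

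The tumours were liver metastases collected at day 30 after Venus-AKTPM/LOH colorectal cancer cells had been injected into the spleen. Live CD45+ leukocytes were sorted from 2 Vav1CreTet2KO mice, in which Cre driven by Vav1 deletes Tet2 across the blood lineages, and from 2 Tet2fl/fl control mice, which carry the floxed allele without the deletion. All 4 mice received the same tumour line, so the comparison covers 1 tumour, and each mouse gave 1 library of 5′ RNA ends and 1 of T cell receptor transcripts. The labels call the mice biological replicates and give no age. Tet2 encodes an enzyme that oxidises methylated cytosine in DNA, and its loss in blood stem cells is a common form of clonal haematopoiesis. In lists of 4 values the mice come in the order knockout 1, knockout 2, control 1 and control 2.

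NK receptors bind MHC class I molecules, stress ligands or lectins on other cells, and pass signals through inhibitory motifs in their tails or through adaptors such as those made by Tyrobp, Fcer1g and Hcst. Most T cells lack them, but they appear on invariant NKT cells, on memory CD8 T cells, and on liver-resident T cells that recognise self molecules and often have neither CD4 nor CD8. Ncr1 encodes NKp46, an activating receptor of NK cells and innate lymphoid cells, and Klrb1c encodes NKR-P1C, the lectin-like receptor long used to mark mouse NK and NKT cells.

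The libraries held between 57190926 and 91789597 UMIs, and between 10741 and 13598 cells passed the filter in each mouse. Median depth over all cells was 3785 and 3768 UMIs in the knockout mice and 6758 and 6298 UMIs in the control mice. Depth was closer among NK-receptor T cells, with medians of 4763.5, 4809, 5462.5 and 4461 UMIs a cell, against 4680.5, 4719.5, 4181.5 and 3848.5 UMIs in other T cells. Each pair of gene expression libraries shared between 186 and 221 barcodes, and 1 barcode of NK-receptor T cells occurred in both knockout mice. Scrublet called 5.88%, 12.7%, 6.10% and 12.2% of NK-receptor T cells doublets, against 4.87%, 10.9%, 8.30% and 10.3% of other T cells.

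The T cell identity of the NK-receptor T cells was examined on CD3 RNA, which the rule had not used, and on receptor constant-region RNA. A UMI of Cd3e, Cd3d or Cd3g, which encode the signalling chains of the receptor complex, was found in 740 of 741 cells. A UMI of a receptor constant-region gene was found in 84.3% of them, against 83.8% of other T cells and 1.56% of B cells. B cells were cells with no receptor contig, at least 2 UMIs of Cd79a and Cd79b and no CD3 UMI. Constant regions belong to the transcripts the contigs were read from, and the B cells were gated to lack contigs. The constant-region measure is therefore not independent of the rule. A doublet of a T cell and an NK cell would also pass both measures. Of 3747 cells with an Ncr1 or Klrb1c UMI and no receptor contig, 31.3% had a CD3 UMI and 45.3% a constant-region UMI. The beta-chain contigs rested on a median of 11, 10, 10 and 10 UMIs a cell, against 9, 9, 8 and 11 UMIs in other T cells, and on 1 UMI in 0.405% of the NK-receptor T cells. An alpha chain was read less often, in 70.2%, 75.2%, 78.0% and 73.0% of NK-receptor T cells against 84.6%, 87.4%, 90.0% and 92.7% of other T cells, a mean difference of -14.6 percentage points. The difference had the same sign in 4 of 4 mice, and an exact two-sided sign-flip permutation test over 4 mice gave p = 0.125, the smallest it can give. The 195 cells without an alpha chain could still hold invariant cells whose alpha chain was missed, so the label holds as far as the alpha chain was read. Their beta chains were of the TRBV13, TRBV29 or TRBV1 kind that pairs with the invariant alpha chain in 39.4%, 47.7%, 44.4% and 35.0%, against 90.9%, 95.8%, 96.9% and 87.0% of the invariant NKT cells. Among cells with an alpha chain, the shares were 44.3%, 33.3%, 28.1% and 42.6% of NK-receptor T cells. They were 30.1%, 33.7%, 33.0% and 50.2% of other T cells with an alpha chain.

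The receptor sequences of some clones made up wholly of NK-receptor T cells are printed here as examples. They stand beside a clone in which such cells were a minority and the shared chain of invariant NKT cells. Each is the CDR3 of the contig, the stretch that meets the antigen, from 5′ to 3′ as deposited. Capitals mark the bases between the start shared with at least 50% of contigs of the same V segment and the end shared with at least 50% of contigs of the same J segment. The beta locus lies on chromosome 6 and the alpha locus on chromosome 14. Clone A had 5 cells in knockout 2 with TRBV10 and TRAV12-3 to TRAJ27, and clone B had 4 cells in knockout 1 with TRBV13-3 and TRAV16D-DV11 to TRAJ22. Clone C had 3 cells in control 2 with TRBV5, and clone D had 3 cells in knockout 1, whose alpha chain joined TRAV12D-3 to TRAJ27. The mixed clone had 73 cells in knockout 1, of which 15 were NK-receptor T cells and 70 had CD8 UMIs, with TRBV13-3 and TRAV6-2 to TRAJ15.
clone A beta: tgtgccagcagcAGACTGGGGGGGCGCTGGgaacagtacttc
clone A alpha: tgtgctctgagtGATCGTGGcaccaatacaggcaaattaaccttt
clone B beta: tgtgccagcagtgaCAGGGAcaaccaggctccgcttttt
clone B alpha: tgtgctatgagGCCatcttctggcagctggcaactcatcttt
clone C beta: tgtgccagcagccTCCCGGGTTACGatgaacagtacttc
clone D alpha: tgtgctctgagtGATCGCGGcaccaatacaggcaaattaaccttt
mixed clone beta: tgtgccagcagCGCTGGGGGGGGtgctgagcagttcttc
mixed clone alpha: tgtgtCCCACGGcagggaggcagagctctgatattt
TRAV1 to TRAJ33 alpha in 3 mice: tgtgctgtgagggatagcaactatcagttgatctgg
commonest invariant alpha: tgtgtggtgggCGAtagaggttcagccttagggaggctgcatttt

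The alpha chains were diverse. The 546 NK-receptor T cells with an alpha chain carried 478 different alpha CDR3 sequences, and 5 of these were found in 2 or more mice. The 205 invariant alpha contigs had 14 different CDR3 sequences, and the one printed above was in 67 of them. The CDR3 that joins TRAV1 to TRAJ33, the alpha chain typical of mucosal-associated invariant T cells, was carried by 4 NK-receptor T cells in 3 mice, each with a different beta chain. Alpha chains of that type were in 0, 2, 1 and 1 of 167, 261, 64 and 54 NK-receptor T cells with an alpha chain. Among other T cells with an alpha chain they were in 4, 17, 1 and 3 of 1683, 1695, 1030 and 1327. The alpha chains of clones A and D, from different mice and different beta chains, had 45 bases each and differed at 1 base, T18C (clone A's base, the position counted from 1 at the 5′ end of the CDR3, and clone D's base). That pair was chosen after the sequences were seen. A TRAV12-family segment joined to TRAJ27 occurred in 2 of 140 and 3 of 227 NK-receptor T cell clones of the knockout mice, and in 0 of 64 and 0 of 51 of the control mice, which allows shares of up to 4.69% and 5.88%. Among other T cells it occurred in 6 of 856, 2 of 1003, 1 of 851 and 0 of 777 clones, the last allowing up to 0.386%.

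NK-receptor T cells made up a larger share of the T cells in both knockout mice than in either control mouse. T cells here were cells with a beta chain and no invariant alpha chain. The shares were 10.7% (exact 95% interval 9.43 to 12.0) and 15.2% (13.7 to 16.7) in the knockout mice. They were 6.69% (5.35 to 8.23) and 4.91% (3.88 to 6.13) in the control mice. The means were 12.9% ± 3.18 in knockout mice and 5.80% ± 1.25 in control mice (SD, n = 2 each), and the exact two-sided permutation test gave p = 0.333, the smallest that 2 mice against 2 can give. Of all sorted leukocytes they were 2.22% and 2.99% in the knockout mice and 0.668% and 0.544% in the control mice. After each cell was thinned to 1000 UMIs, they were 4.95% and 7.05% of T cells in the knockout mice and 2.94% and 2.28% in the control mice, so the groups did not overlap at equal depth either. B cells were taken as a floor to such shares. Of B cells, 1.40% and 1.72% in knockout mice and 1.71% and 1.11% in control mice had a UMI of either gene. Their median depth was 2586 to 3156 UMIs a cell. At 1000 UMIs a cell the B cell shares were 0.755% and 0.815% in knockout mice and 0.505% and 0.249% in control mice. The floor thus had the genotype order of the T cell shares at equal depth, and its part in them was not tested. The source of these UMIs in B cells was not tested either. Intervals cover counting error only.

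**Figure D1:**
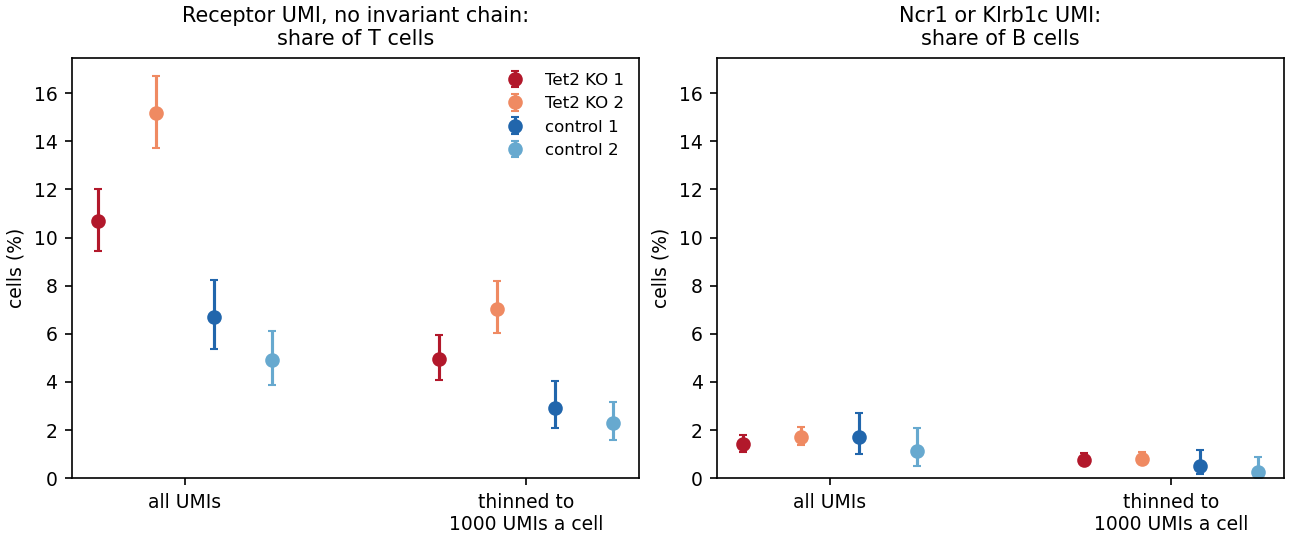
Share of T cells that were NK-receptor T cells (left) and share of B cells with an Ncr1 or Klrb1c UMI (right), in percent of cells, for each mouse, with all UMIs and with each cell thinned to 1000 UMIs. Points are mice and bars are exact 95% intervals; the knockout mice stood at 10.7% and 15.2% and the control mice at 6.69% and 4.91%, all above the B cell floor.

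The receptor RNA that selected the cells was sparse, and its levels are given as a description. Of the 741 cells, 241 (32.5%) had exactly 1 UMI of the pair and so stood at the threshold, just above the 6506 other T cells with none, and the median was 2. Klrb1c alone was found in 50.3% of the cells, both genes in 39.8% and Ncr1 alone in 9.85%. Cells with more receptor UMIs differed from other T cells in genes the rule had not used. Fcer1g, the adaptor of several activating receptors, had a UMI in 65.6% of cells with 1 receptor UMI, in 89.3% of those with 2 and in 97.4% of those with 3 or more, against 14.5% of other T cells. Klra7, an inhibitory receptor of the Ly49 family, had a UMI in 31.5%, 54.4% and 54.1% of these classes, against 2.46% of other T cells. In other T cells an Fcer1g UMI was seen in 8.19% and 10.9% in knockout mice and 20% and 23.9% in control mice, and in B cells, at lower depth, in 8.84% and 10.5% in knockout mice and 31.4% and 26.9% in control mice. The share in other T cells was thus below that in B cells in 3 of 4 mice, and the part of free RNA in it was not tested. Median depth was 4305, 4629 and 5476 UMIs a cell in these 3 classes and 4465.5 UMIs in other T cells, and its part in the order was not tested.

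Most NK-receptor T cells showed neither coreceptor. No UMI of Cd4, Cd8a or Cd8b1 was seen in 61.8%, 61.4%, 48.8% and 67.6% of NK-receptor T cells, against 13.5%, 19.4%, 27.9% and 26.5% of other T cells, a mean difference of 38.0 percentage points. CD8 UMIs without Cd4 were found in 31.9%, 32.3%, 41.5% and 25.7% of NK-receptor T cells, against 64.8%, 59.5%, 51.5% and 47.6% of other T cells, a mean difference of -23.0 percentage points. Cd4 alone was found in a mean of 7.01% ± 1.91 of NK-receptor T cells and 21.1% ± 2.68 of other T cells (SD, n = 4 each). The classes did not overlap for any of the 3 states, and exact sign-flip permutation tests gave p = 0.125 for each, the smallest 4 mice allow. At 1000 UMIs a cell the share with neither was 78.5%, 79.5%, 74.4% and 86.5% against 40.2%, 45.6%, 55.4% and 52.5%, so its size depends on depth while the order of the classes did not. Invariant NKT cells, which are known to lack CD8, showed neither coreceptor in 81.8%, 89.5%, 93.8% and 87.0%. The genotypes overlapped in the CD8 and neither shares of the NK-receptor T cells: CD8 cells averaged 32.1% ± 0.243 in knockout mice and 33.6% ± 11.2 in control mice (SD, n = 2 each; exact permutation p = 1). With all UMIs the Cd4 share did not overlap, at a mean of 5.76% ± 0.417 in knockout mice and 8.26% ± 2.12 in control mice (exact permutation p = 0.333, the smallest possible). The control values rest on 8 and 5 cells. At 1000 UMIs a cell the Cd4 shares overlapped, at 0.844% and 2.02% in knockout mice and 4.88% and 0% in control mice.

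**Figure D2:**
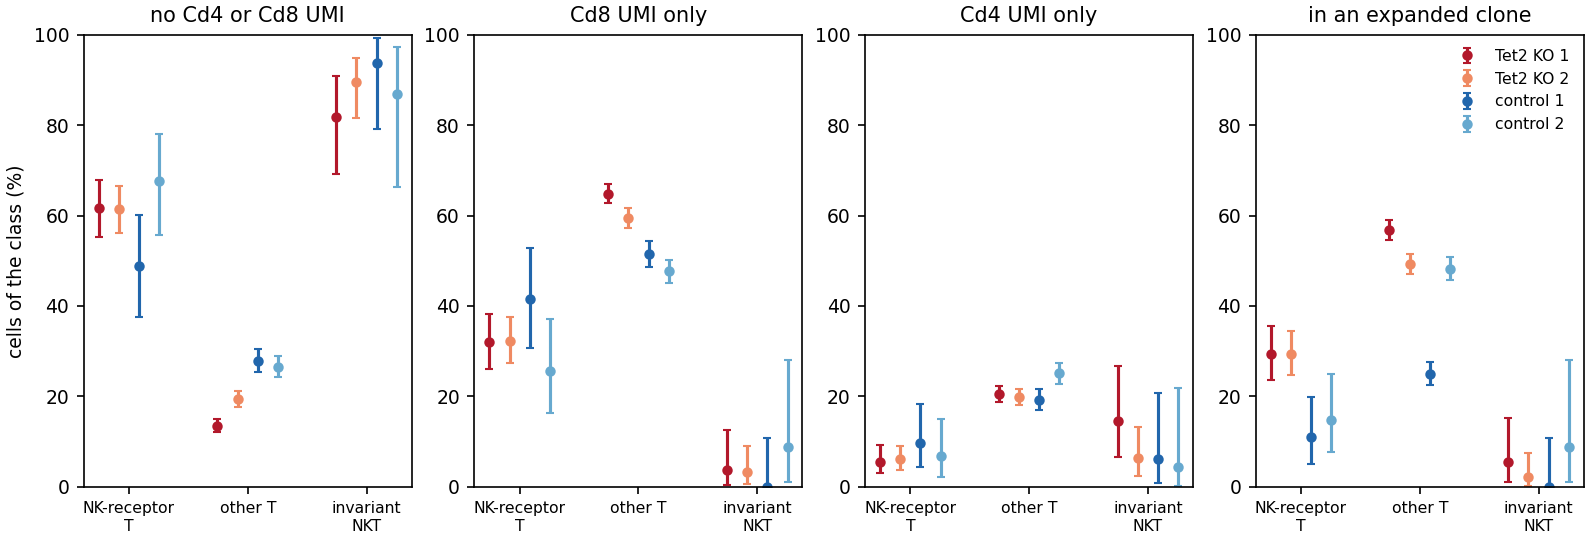
Percent of NK-receptor T cells, other T cells and invariant NKT cells with no coreceptor UMI, with CD8 UMIs only, with Cd4 UMIs only, and in a clone of 2 or more cells, for each mouse with exact 95% intervals. Neither coreceptor was seen in 48.8% to 67.6% of NK-receptor T cells, against 13.5% to 27.9% of other T cells.

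Ly49 and other NK receptor genes had the highest median differences between NK-receptor T cells and other T cells among the gene lists examined. Counts were summed over the cells of each class in each mouse and the classes were compared within mice with edgeR's quasi-likelihood test, and levels are given as CPM (the gene's count as a share of the sum, scaled to 1e+06). The test called 881 of 12095 genes at an adjusted p under 0.05, which is 7.28% of genes tested, with 442 higher (3.65%) and 439 lower (3.63%) in NK-receptor T cells. Of 11 Ly49 genes tested, 7 were higher and 0 lower, with a median log2 difference of 4.32, and of 18 other NK receptor genes 11 were higher and 0 lower, with a median of 2.31. The median over all tested genes was -0.02. Immunoglobulin genes, which T cells do not make, were also among the calls, with 24 of 98 lower.

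Klra1, which encodes Ly49A, an inhibitory receptor for MHC class I, had 291, 218, 244 and 231 CPM in NK-receptor T cells, against 3.94, 6.09, 12.9 and 5.76 CPM in other T cells. Every mouse showed a wide gap, and the log2 difference was 5.13 ± 0.34 (SE; edgeR adjusted p = 0.00404), and it was as large without knockout 2 and without control 2, where it missed the threshold (log2 5.15 and 5.09; edgeR adjusted p = 0.0652 and 0.0504). Klra7, which encodes Ly49G, had 300.3, 262, 325 and 208 CPM, against 11.6, 13.4, 21.2 and 7.5 CPM, a log2 difference of 4.32 ± 0.12 (edgeR adjusted p = 2.37e-13). Klra9 and Klra5, of the same family, differed by 4.83 ± 0.27 and 4.56 ± 0.19. The gate gene's neighbours Klrb1a and Klrb1f differed by 4.87 ± 0.25 and 4.87 ± 0.25. The Ly49 genes and the Klrb1 genes are families of near-identical copies, so reads of 1 member can be counted for another, and Klrb1a and Klrb1f are not independent of the Klrb1c gate in that respect.

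Receptors outside those families rose as well. Cd7, an immunoglobulin-family receptor of NK and T cells, had 1870.1, 2093, 1326 and 1196 CPM in NK-receptor T cells, against 280.3, 290.2, 189 and 215 CPM in other T cells (log2 2.64 ± 0.09; edgeR adjusted p = 2.18e-13). Klre1, a lectin that forms receptors with Klri1 or Klri2, had 457, 338, 284 and 187 CPM, against 52.2, 36.0, 25.6 and 9.91 CPM (log2 3.31 ± 0.18; edgeR adjusted p = 7.08e-05). Cd160, which binds HVEM and MHC class I, and Cd244a, the receptor for CD48, rose by 1.90 ± 0.09 and 2.08 ± 0.19, and Klrd1, the CD94 chain shared by the NKG2 receptors, by 1.24 ± 0.16. The last missed the threshold without control 2 (log2 1.14; edgeR adjusted p = 0.0717). Klrk1, which encodes NKG2D, stood at 484, 366, 295 and 289 CPM against 114, 99.5, 33.6 and 14.2 CPM; it was higher in 4 of 4 mice but did not pass the test (log2 2.55 ± 0.54; edgeR adjusted p = 0.134), and the gap in control mice was the wider.

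**Figure D3:**
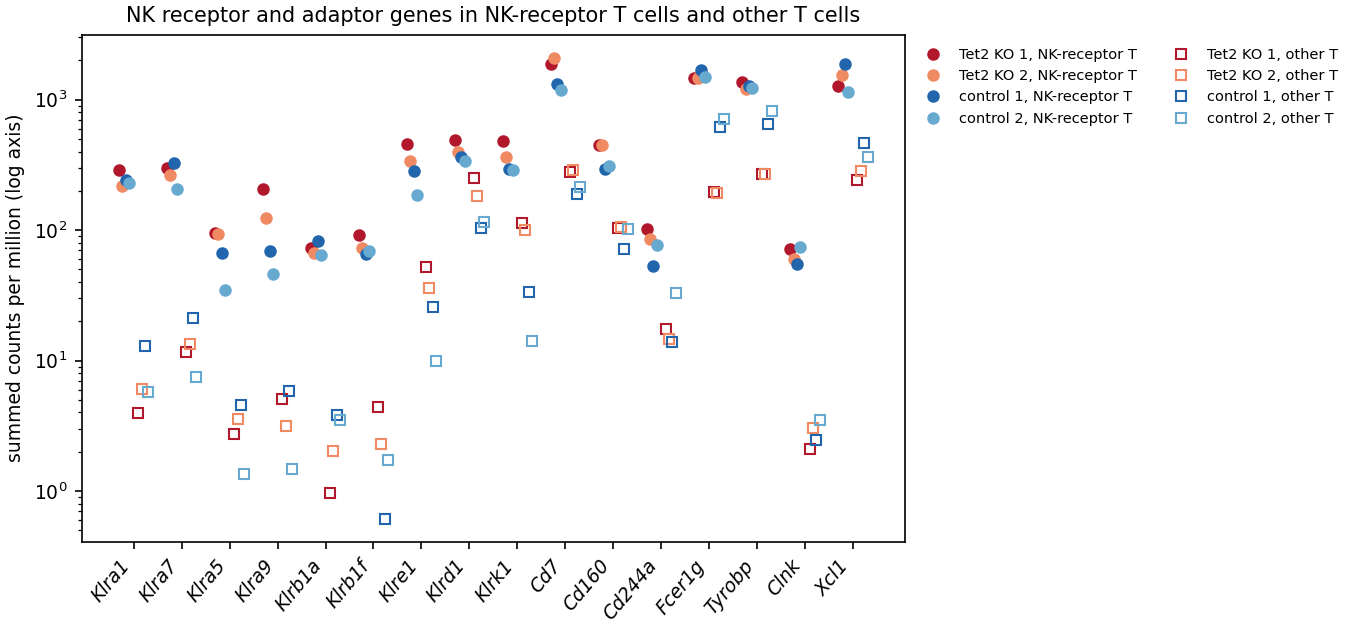
Summed CPM on a log axis for 16 NK receptor, adaptor and signalling genes in each mouse, with filled circles for NK-receptor T cells and open squares for other T cells. Circles lie above squares of the same mouse for every gene shown; Klrk1, Fcer1g and Tyrobp did not pass the edgeR test.

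The signalling genes of NK cells followed. Of 13 adaptor and signalling genes tested, 7 were higher and 0 lower, with a median log2 difference of 1.21. Il12rb2, a chain of the interleukin-12 receptor, differed by 2.61 ± 0.16, Il2rb, the receptor chain for interleukins 2 and 15, by 1.43 ± 0.09, Lat2, a membrane adaptor, by 1.75 ± 0.14, and the kinase gene Txk by 1.06 ± 0.10. Clnk, an adaptor found in cytokine-stimulated blood cells, had 72.2, 60.4, 54.6 and 74.0 CPM in NK-receptor T cells, against 2.10, 3.05, 2.46 and 3.48 CPM in other T cells (log2 4.49 ± 0.19; edgeR adjusted p = 2.28e-12). Fcer1g had 1469.7, 1462, 1687 and 1492 CPM, against 196, 193, 622 and 704 CPM, and Tyrobp, which encodes DAP12, had 1359.9, 1210.0, 1275 and 1222 CPM, against 271, 269.5, 651 and 813 CPM. Both were higher in 4 of 4 mice, yet neither passed the test (log2 2.02 ± 0.47 and 1.45 ± 0.41; edgeR adjusted p = 0.158 and 0.219), and the gap was smaller in control mice. Macrophages also express both adaptors, and the summed level of 13 macrophage genes in other T cells was 1332 and 1239 CPM in knockout mice and 4816 and 5419 CPM in control mice; its part in the smaller gap was not tested.

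Cytotoxic genes were mostly higher, with 9 of 16 called higher and 1 lower. Prf1, which encodes perforin, had 98.2, 87.0, 162 and 111 CPM in NK-receptor T cells, against 41.6, 35.1, 29.6 and 37.2 CPM in other T cells (log2 1.5 ± 0.22; edgeR adjusted p = 0.0109, and 0.154 at log2 1.47 without control 2). Serpinb6b, a protease inhibitor, and Ctsw, cathepsin W, rose by 1.44 ± 0.09 and 0.91 ± 0.09, while Gzmk, the granzyme of early effector memory cells, fell by 1.37 on the log2 scale. Gzma and Gzmb were higher in 4 of 4 mice without passing the test, at 1944, 1325, 2653 and 2193 CPM against 312, 196, 393 and 1254 CPM and at 1079, 1224, 1860.2 and 747 CPM against 438, 357, 289 and 437 CPM (edgeR adjusted p = 0.135 and 0.186). Among other T cells Gzma was highest in control 2. Xcl1, the chemokine that draws cross-presenting dendritic cells, had 1277, 1540.3, 1882 and 1138 CPM, against 241, 285, 462 and 363 CPM (log2 2.06 ± 0.11; edgeR adjusted p = 4.39e-09). Ccl5 was abundant in both classes, with 12696, 11083, 9050.0 and 7209.6 CPM against 8011, 5342, 2875 and 5949 CPM (log2 0.83 ± 0.23; edgeR adjusted p = 0.127, not passed).

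The transcription factor genes Tbx21, Eomes and Zfp683 were higher in NK-receptor T cells. Tbx21, which encodes T-bet, differed by 1.24 ± 0.10, Eomes by 1.15 ± 0.16, and Zfp683, which encodes Hobit, a factor of liver-resident lymphocytes, by 1.65 ± 0.28. At equal depth Eomes and Zfp683 missed the threshold (log2 0.99 and 1.5; edgeR adjusted p = 0.208 and 0.0601), as did Zfp683 in CD8 cells (log2 1.12; edgeR adjusted p = 0.161). Of 15 tissue residence genes 2 were higher and 1 lower, with a median log2 difference of 0.05. Itga1, the CD49a integrin of resident lymphocytes of the liver, had 145, 99.9, 50.9 and 83.3 CPM in NK-receptor T cells, against 67.6, 46.8, 17.0 and 42.1 CPM in other T cells (log2 1.05 ± 0.11; edgeR adjusted p = 2.37e-06). Itgae, the CD103 integrin of epithelial resident T cells, ran the other way, with 20.8, 8.88, 40.0 and 41.6 CPM against 43.3, 37.7, 60.9 and 119 CPM (log2 -1.41 ± 0.18; edgeR adjusted p = 1.15e-04). Zbtb16, which encodes PLZF, the factor of innate-like T cells, was low in both classes, at 13.0, 16.4, 30.9 and 4.63 CPM against 5.08, 8.63, 2.61 and 2.41 CPM (log2 1.52 ± 0.40; edgeR adjusted p = 0.0453). It missed the threshold in 6 of 14 alternatives, among them without control 2 (edgeR adjusted p = 0.142) and at equal depth (log2 0.995; edgeR adjusted p = 0.51). None of 25 proliferation genes was called in either direction, and their median log2 difference was -0.04.

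Genes of the receptor complex, of naive cells and of chronically stimulated cells were among those that were lower. Of 18 T cell receptor and lineage genes, 0 were higher and 9 lower, with a median log2 difference of -0.40. Cd8b1 had 287, 149, 127 and 104 CPM in NK-receptor T cells, against 752, 659, 482 and 534 CPM in other T cells (log2 -1.99 ± 0.12; edgeR adjusted p = 1.02e-07), and Cd4 had 20.8, 18.6, 20 and 20.8 CPM, against 73.1, 69.1, 58.0 and 90.8 CPM (log2 -1.94 ± 0.14; edgeR adjusted p = 6.38e-09). Cd5, a brake on receptor signalling that rises with self-reactivity in the thymus, fell by 1.49 on the log2 scale, and Lat, the scaffold of receptor signalling, by 0.96. Trac fell by 0.67, whereas Cd3e did not pass the test, with 1008, 928, 729 and 863 CPM against 1009, 995, 825 and 1100.0 CPM (log2 -0.23 ± 0.08; edgeR adjusted p = 0.120). Of 16 naive and egress genes 0 were higher and 10 lower, among them S1pr1, the exit receptor of lymphocytes, at -1.35 ± 0.13, Il7r at -0.98 ± 0.11, Tcf7 at -0.66 ± 0.14 and Igfbp4 at -2.55 ± 0.14. Tcf7 missed the threshold in 2 of 14 alternatives, among them without control 2 (log2 -0.71, edgeR adjusted p = 0.1). Its highest adjusted p over the alternatives was 0.601, and its smallest fall was 0.43 on the log2 scale. Igfbp4 missed it in 1 of 14. Of 24 exhaustion genes 4 were higher and 9 lower; Pdcd1, which encodes PD-1, had 87.8, 87.0, 54.6 and 81.0 CPM, against 151, 210.5, 173 and 317 CPM (log2 -1.40 ± 0.14; edgeR adjusted p = 9.82e-05). Icos, a costimulatory receptor, and Tnfrsf4, which encodes OX40 and is high on regulatory T cells, fell by 1.47 and 2.36. Tnfrsf4 missed the threshold in 3 of 14 alternatives, among them without knockout 1 or without control 1 (log2 -2.36 and -2.38, edgeR adjusted p = 0.0587 and 0.0852). Its highest adjusted p over the alternatives was 0.108.

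Gamma and delta receptor genes were more abundant in NK-receptor T cells than in other T cells, although both classes carried a beta chain. The gamma-delta list summed to 433, 366, 362 and 456 CPM in NK-receptor T cells and to 508, 549, 255 and 257 CPM in invariant NKT cells. Against invariant NKT cells, Trdc and Trdv4 were called higher among 6 genes of that list tested, whose median log2 difference was -0.04. Trdc, the delta constant region, had 40.3, 18.2, 20 and 48.6 CPM in NK-receptor T cells, against 4.38, 3.81, 1.53 and 2.41 CPM in other T cells (log2 3.11 ± 0.31; edgeR adjusted p = 2.37e-06), and a Trdc UMI was seen in 12.6%, 7.20%, 8.54% and 18.9% of them, against 1.46%, 1.03%, 0.612% and 0.698%. B cells, at lower depth, had a Trdc UMI in 0.0647% to 0.124%. Trgc4 and Trgc1, gamma constant regions, rose by 2.95 ± 0.22 and 2.50 ± 0.42. Il17a, the cytokine of another innate-like lineage, fell by 3.01, with 0, 7.55, 0 and 2.31 CPM against 19.5, 34.4, 29.5 and 13.5 CPM, and missed the threshold without control 2 (log2 -3.02; edgeR adjusted p = 0.0686).

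Fewer genes were called among cells of 1 coreceptor state. Among cells with CD8 UMIs and no Cd4 in both classes, 361 genes were called, of which 290 were among the 881. At 1000 UMIs a cell 490 genes were called, 364 of them among the 881, and without knockout 2, the mouse with most NK-receptor T cells, 508 were called. Without called doublets the count was 879, with 771 shared. Within CD8 cells the log2 difference was 4.05 for Klra7, 2.10 for Cd7, 1.56 for Xcl1 and -1.11 for Pdcd1, and the last did not pass there (edgeR adjusted p = 0.505).

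Cells gated as NK cells in the same libraries showed other levels of several receptor genes, described here without a test. NK cells were taken as cells with an Ncr1 or Klrb1c UMI, no receptor contig and no CD3 UMI, which numbered 594, 669, 872 and 440 at medians of 4529, 4389, 4598.5 and 5057 UMIs. This gate also admits other cell types with such a UMI, among them 65, 91, 17 and 9 of the B cells. Macrophage genes summed to 3097, 3211, 9863 and 10503 CPM in it, against 1550, 908, 3277 and 4438 CPM in NK-receptor T cells. The part of such cells in the shares below was not tested. Klra1 had a UMI in 45.4%, 43.8%, 37.8% and 28.4% of NK-receptor T cells, against 11.4%, 18.2%, 6.77% and 8.86% of NK cells, and in 0.247% to 1.01% of B cells. Cd160 showed the same order, with 74.4%, 76.4%, 70.7% and 70.3% against 47.1%, 51.4%, 26.4% and 39.1%, and Itga1 had 52.5%, 42.7%, 24.4% and 28.4% against 22.4%, 21.2%, 6.88% and 13.9%. Klra8, which encodes the activating receptor Ly49H, ran the other way, with 0.840%, 3.75%, 17.1% and 1.35% against 17.0%, 17.0%, 33.3% and 17.7%. So did the NK factor Eomes, with 10.1%, 9.51%, 23.2% and 12.2% against 33.5%, 31.7%, 49.2% and 37.7%, and Prf1, with 37.0%, 34.9%, 37.8% and 25.7% against 62.8%, 59.8%, 68.5% and 50.0%. In each of these genes the classes were ordered the same way in 4 of 4 mice. Klra1, Cd160 and Itga1 were thus above both NK cells and other T cells in every mouse.

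NK-receptor T cells also differed from invariant NKT cells, which share the gate genes in part: Klrb1c had a UMI in 60.0%, 51.6%, 28.1% and 30.4% of the 205 invariant cells. The edgeR test within mice called 122 of 6781 genes (1.8%), 67 higher (0.988%) and 55 lower (0.811%) in NK-receptor T cells. Il4, the cytokine made promptly by NKT cells, had 7.80, 1.33, 12.7 and 0 CPM in NK-receptor T cells, against 232, 102, 351 and 94.3 CPM in invariant NKT cells (log2 -5.22 ± 0.29; edgeR adjusted p = 3.10e-10). Zbtb16 had 13.0, 16.4, 30.9 and 4.63 CPM, against 68.1, 85.6, 148 and 51.4 CPM (log2 -2.41 ± 0.26; edgeR adjusted p = 2.48e-06), and the classes did not overlap in either gene. Cd40lg, the helper ligand, Ly6a and the liver-homing receptor Cxcr6 fell by 2.69, 1.72 and 1.05 on the log2 scale. Of 10 innate-like fate genes tested 0 were higher and 3 lower, and the list's median was -0.81 beside 0.01 for all genes.

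The receptors and several inhibitory molecules were higher than in invariant cells. The NK-receptor T cells were chosen by an Ncr1 or Klrb1c UMI and the invariant cells were not. The part of that choice in the higher NK receptor RNA was not tested. Klra7 had 300.3, 262, 325 and 208 CPM in NK-receptor T cells, against 58.8, 55.5, 10.3 and 51.4 CPM in invariant NKT cells (log2 2.64 ± 0.35; edgeR adjusted p = 0.00876), and 4 of 8 Ly49 genes were higher with 0 lower. Eomes had 36.4, 25.7, 56.4 and 37.0 CPM, against 6.19, 1.5, 0 and 0 CPM (log2 3.94 ± 0.57; edgeR adjusted p = 1.67e-04). Of 21 exhaustion genes 8 were higher and 0 lower, with a median of 0.99: Ikzf2, which encodes Helios, rose by 2.44 ± 0.23, Tigit by 1.79 ± 0.22, Pdcd1 by 1.79 ± 0.28 and Tox by 1.5 ± 0.24. Ccl3 and Ccl5, chemokines of activated T cells, rose by 1.64 ± 0.18 and 1.51 ± 0.20. Cd8b1 had 287, 149, 127 and 104 CPM against 24.8, 3, 0 and 8.57 CPM. Fcer1g and Prf1 were higher in 4 of 4 mice and did not pass (log2 1.02 ± 0.25 and 1.64 ± 0.37; edgeR adjusted p = 0.115 and 0.0703). The invariant sums rest on 55, 95, 32 and 23 cells, and the neutrophil genes summed to 23427 CPM in those of control 2. Macrophage genes summed to 1149, 674, 8610 and 10677 CPM in invariant cells, against 1550, 908, 3277 and 4438 CPM in NK-receptor T cells. Scrublet called 5.45%, 9.47%, 25% and 13.0% of the invariant cells doublets. Without control 2 the count of calls was 200, while Klra7 and Ccl5 kept their size and missed the threshold (log2 2.67 and 1.51; edgeR adjusted p = 0.145 and 0.324).

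Within the NK-receptor T cells, those with CD8 UMIs differed from those with neither coreceptor, described here without a test. They numbered 76, 112, 34 and 19 with CD8, against 147, 213, 40 and 50 with neither. Klra1 stood at 60.8, 99.5, 125 and 44.2 CPM in CD8 cells, against 526, 329, 457 and 369 CPM in cells with neither. Klra7 stood at 98.1, 166, 344 and 169 CPM against 518, 354, 362 and 263 CPM, so that both Ly49 genes were lower in the CD8 cells of 4 of 4 mice. Gzma stood at 1952, 1827, 3984 and 3547 CPM in CD8 cells, against 1968, 1030, 814 and 1596 CPM in cells with neither, so that the 2 classes were level in knockout 1 and the CD8 cells higher in the other 3 mice. Eomes stood at 60.8, 42.8, 68.0 and 29.4 CPM in CD8 cells, against 16.3, 14.6, 40.2 and 23.6 CPM, higher in 4 of 4 mice. CD8 cells were deeper, with medians of 6233.5, 4932.5, 6581.5 and 5195 UMIs against 4363, 4592, 4338 and 3712.5 UMIs, and the part of depth was not tested. An alpha chain was read in 92.1%, 87.5%, 88.2% and 89.5% of CD8 cells, against 57.1%, 68.1%, 65.0% and 64.0% of cells with neither.

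NK-receptor T cells were less often part of an expanded clone than other T cells of the same mouse. A clone was the set of cells of 1 mouse with the same V and J segments and the same CDR3 bases of the beta chain, and it was called expanded at 2 or more cells. Of NK-receptor T cells 29.4%, 29.4%, 11.0% and 14.9% were in expanded clones, against 56.8%, 49.3%, 24.9% and 48.3% of other T cells. The mean difference was -23.7 percentage points with the same sign in 4 of 4 mice (exact sign-flip permutation p = 0.125, the smallest possible). Between genotypes the share was 29.4% ± 0.0120 in knockout mice and 12.9% ± 2.75 in control mice (SD, n = 2 each), without overlap, and the exact permutation p was 0.333, again the smallest possible. More T cells were read in the knockout mice, 2228 and 2287 with a beta chain and no invariant alpha chain against 1226 and 1506. The part of that number in the genotype difference was not tested. Invariant NKT cells had 3, 2, 0 and 2 cells in such clones, the 0 of 32 allowing a share of up to 9.38%.

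Expanded NK-receptor T cells fell into separate kinds of clone. In 27 of 576 expanded clones every cell was an NK-receptor T cell, with 7 and 19 such clones in knockout mice and 0 and 1 in control mice, and none of them had more than 5 cells. These clones held 66 cells, of which 48 showed neither coreceptor and 16 had CD8. Another 126 NK-receptor T cells were in clones mixed with other T cells, and 73.0% of these had CD8. Of the 549 whose clone was seen as 1 cell, 24.2% had CD8 and 70.3% neither. Among 248 clones of 2 cells, 212 held 0 NK-receptor T cells, 18 held 1 and 18 held 2. Of 69 clones with 10 or more cells 35 held at least 1, but there they were 71 of 1604 cells and at most 20.5% of a clone, which was the mixed clone printed above. The other cells of mixed clones had 0 receptor UMIs, and the part of sampling in that was not tested.

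**Figure D4:**
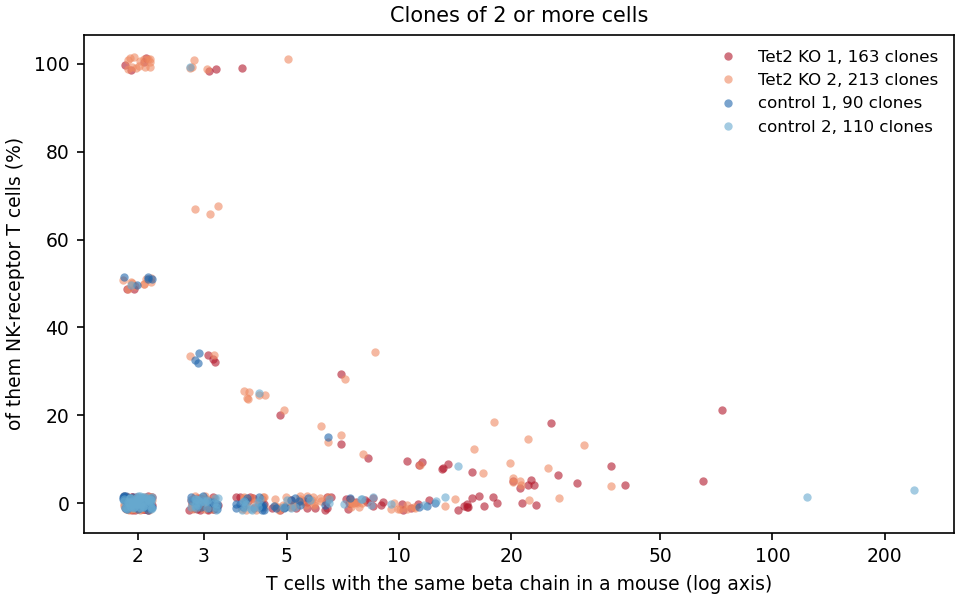
Size of each expanded clone (T cells with the same beta chain in a mouse, log axis) against the percent of its cells that were NK-receptor T cells, with points scattered slightly to show overlap. All 27 clones made up wholly of NK-receptor T cells had 5 or fewer cells, and in the 69 clones of 10 or more cells the percent did not pass 20.5.

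Beta-chain segment use differed for few segments. Of 22 segments with at least 10 clones in all, edgeR called 4 (18.2%) between 659 clones of NK-receptor T cells and the clones of other T cells. TRBV2 and TRBV20 were rarer, with 13 against 184 clones (log2 -1.21 ± 0.34; edgeR adjusted p = 0.0115) and 11 against 153 clones (log2 -1.23 ± 0.35; edgeR adjusted p = 0.0139). Contigs named by both TRBV12-2 and TRBV13-2 were commoner, at 13.8%, 12.8%, 13.4% and 11.6% of NK-receptor T cell clones against 7.28%, 9.76%, 8.32% and 7.88% (log2 0.60 ± 0.17; edgeR adjusted p = 0.0115). TRBV13-2 named alone was rarer, with 2 against 86 clones, so the 2 calls move between names of 1 segment; with both names joined the shares were 13.8%, 13.4%, 13.4% and 11.6% against 9.84%, 11.3%, 11.2% and 9.65%. Leaving out 1 mouse left between 0 and 2 edgeR calls, with 0 without knockout 1, and counting cells in place of clones left 0, with 5 segments at an unadjusted p under 0.05 in each of these cases.

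In the knockout mice, 5 of 18 interferon-response genes, 5 of 18 immediate early and stress genes and the homing receptor gene Cxcr6 were called higher in NK-receptor T cells, against 1.28% of all genes tested, and RNA of other cell types moved with genotype in the same sums. The targeted gene was no check on the labels: Tet2 had 22.1 and 24.0 CPM in knockout mice and 27.3 and 34.7 CPM in control mice (log2 -0.43 ± 0.33; edgeR adjusted p = 0.620), and where the reads lie relative to the deleted part was not given in the sources used here. The test of 2 knockout against 2 control sums called 209 of 8187 genes (2.55%), 105 higher and 104 lower (1.27%). Without called doublets 37 genes were called, all of them among the 209, and in CD8 cells alone 31.

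Isg15, Bst2, Mx1, Ifit3 and Irf7 were the interferon-response genes called higher in the knockout mice. Isg15, a ubiquitin-like protein induced by interferon, had 241 and 248 CPM in knockout mice and 120.0 and 74.0 CPM in control mice (log2 1.28 ± 0.21; edgeR adjusted p = 0.00216, and 0.00547 without doublets). The groups did not overlap, and the background cells of the same libraries (cells without a receptor contig, NK cells left out), at 191 and 233 CPM in knockout mice and 344 and 150.3 CPM in control mice, did not show that order. Isg15 passed in each of 14 alternatives, whereas Bst2 missed the threshold in 9 of 14, Irf7 in 7 of 14, Ifit3 in 6 of 11 and Mx1 in 4 of 9, with the sign kept in each. Bst2 and Irf7 missed it without control 2 (log2 0.56 and 0.74; edgeR adjusted p = 0.151 and 0.0965), and Bst2 and Ifit3 without knockout 1 (log2 0.77 and 4.09; edgeR adjusted p = 0.154 and 0.381). Bst2 also missed it without knockout 2 (log2 0.87; edgeR adjusted p = 0.0586). No interferon-response gene was called lower, and the list's median was 0.95 beside -0.01 for all genes. The list summed to 1078 and 1153 CPM in knockout mice and 744 and 541 CPM in control mice. In other T cells it summed to 1195 and 1209 CPM in knockout mice and 1048 and 750 CPM in control mice. The test for a genotype effect that differs between NK-receptor T cells and other T cells called 0 of 25 interferon-response genes. The stress genes called higher were Hspa1a, Hspa1b, Dnajb1, Hsp90aa1 and Ier2, with 0 lower and a list median of 0.34. Hspa1a, which encodes the inducible chaperone HSP70, had 1045 and 1062 CPM in knockout mice and 529 and 449 CPM in control mice (log2 1.07 ± 0.16; edgeR adjusted p = 6.61e-04), and its partner Dnajb1 rose by 0.98 ± 0.15 and Hsp90aa1 by 0.79 ± 0.16, the last at 0.60 without control 2 (edgeR adjusted p = 0.105). Background cells held 1149 and 1135 CPM of Hspa1a in knockout mice and 453 and 345 CPM in control mice, so they showed the same order.

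Receptor and homing genes of lymphocytes differed as well. Cxcr6, which holds T and NKT cells in liver sinusoids, had 332 and 251 CPM in knockout mice and 158 and 159.6 CPM in control mice (log2 0.84 ± 0.18; edgeR adjusted p = 0.0157). It missed the threshold in 4 of 14 alternatives, among them without knockout 1 (log2 0.69; edgeR adjusted p = 0.196). Klra9 had 207 and 123 CPM in knockout mice and 69.1 and 46.3 CPM in control mice (log2 1.44 ± 0.29; edgeR adjusted p = 0.0226), and was the one called of 9 Ly49 genes, whose median was -0.70; in CD8 cells its log2 value was 0.53 (edgeR adjusted p = 0.646). Klrc1, which encodes the inhibitory chain NKG2A, Cd7, Fasl and Hcst, which encodes DAP10, rose by 0.89, 0.62, 0.79 and 0.65 with SEs of 0.14 to 0.20. Ccl5 and Il7r rose by 0.51 ± 0.13 and 0.75 ± 0.19. These 6 genes kept their sign in each of 14 alternatives and missed the threshold in 5 to 8 of them. Without doublets the log2 values were 0.85, 0.58, 0.78, 0.60, 0.52 and 0.62 in the order named (edgeR adjusted p = 0.0598 to 0.183). Klrc1 and Il7r missed it without knockout 1 (log2 0.60 and 0.57; edgeR adjusted p = 0.307 and 0.493), Fasl without either knockout mouse in turn (0.0729 and 0.235), Hcst without knockout 1 or control 1 (0.11 and 0.0578), Cd7 without knockout 2 or control 2 (0.061 and 0.17) and Ccl5 without control 1 or control 2 (0.0809 and 0.582).

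Bcl2 and Rgs16 were lower in the knockout mice. Bcl2, the survival factor, had 167 and 164 CPM in knockout mice and 256 and 359 CPM in control mice (log2 -0.91 ± 0.18; edgeR adjusted p = 0.00869), and Rgs16, a brake on chemokine receptor signalling, fell by 1.14. Both were still called without doublets, while Bcl2 missed the threshold in CD8 cells (edgeR adjusted p = 0.0833) and in cells with an alpha chain (0.158), and Rgs16 without knockout 1 (log2 -0.98; 0.144) or control 1 (log2 -0.84; 0.0524). Itgae fell by 1.56 on few counts, at 20.8 and 8.88 CPM in knockout mice and 40.0 and 41.6 CPM in control mice, and missed it in 9 of 14 alternatives, among them without knockout 2 (log2 -1.02; edgeR adjusted p = 0.311). Of the cytotoxic genes Fasl passed, while Gzma, Prf1 and the cytokine gene Ifng did not. Gzma had 1944 and 1325 CPM in knockout mice and 2653 and 2193 CPM in control mice (log2 -0.61 ± 0.17; edgeR adjusted p = 0.0769), Prf1 differed by -0.61 ± 0.20 (adjusted p = 0.144) and Ifng by 1.65 ± 0.51 (adjusted p = 0.342). Trbv15, a beta segment, stood at 98.2 and 125 CPM in knockout mice and 9.09 and 11.6 CPM in control mice.

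**Figure D5:**
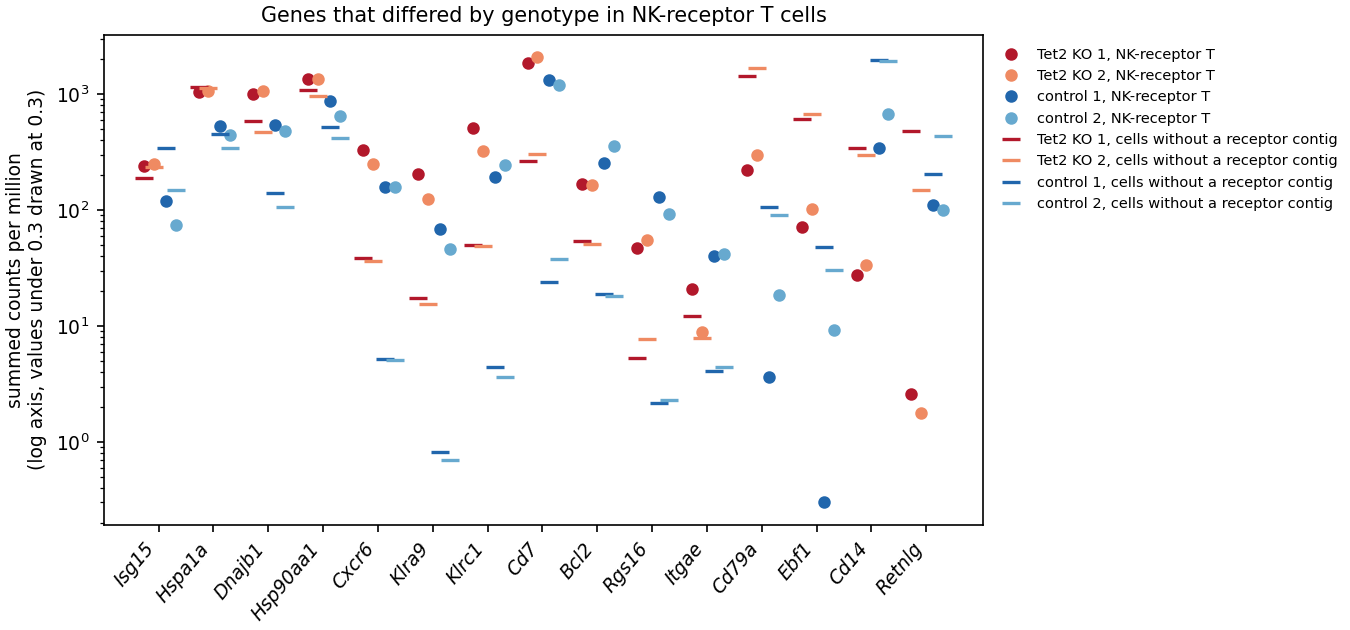
Summed CPM on a log axis in each mouse for 15 genes called between genotypes in NK-receptor T cells (circles), with the level in cells of the same library without a receptor contig, NK cells left out (dashes). Cxcr6 and Bcl2 lay above those cells in every mouse, while Cd79a, Ebf1 and Cd14 lay below them.

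Marker RNA of other cell types moved with genotype in the same sums. All 9 B cell markers tested were called higher; Cd79a had 219.7 and 301 CPM in knockout mice and 3.64 and 18.5 CPM in control mice, and background cells had 1448 and 1693 CPM in knockout mice and 107 and 90.2 CPM in control mice. The summed level of 10 B cell genes in NK-receptor T cells was 753 and 849 CPM in knockout mice and 116 and 174 CPM in control mice. Macrophage genes summed to 1550 and 908 CPM in knockout mice and 3277 and 4438 CPM in control mice, and 4 of 11 tested were called lower, such as Ctss, a lysosomal protease, at -1.20 ± 0.16. Neutrophil genes summed to 423 and 77.7 CPM in knockout mice and 1655 and 3700 CPM in control mice, and no marker on these 3 lists was at 0 in all mice. Among called genes higher in knockout mice, 41.0% were more abundant in background cells than in NK-receptor T cells of both knockout mice, against 24.0% of all genes tested with that sign. For called lower genes the share more abundant in background cells of both control mice was 78.8%, against 29.0%. The part of such RNA in the single genes was not tested.

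The effect of genotype in NK-receptor T cells differed from that in other T cells for few genes. The interaction test called 52 of 12095 genes (0.43%), 34 with a more positive effect (0.281%) and 18 with a more negative one (0.149%), and 24 without doublets. Klrc1 stood at 508 and 324 CPM in NK-receptor T cells of knockout mice and 195 and 245 CPM in those of control mice, and at 233 and 216 CPM in other T cells of knockout mice and 65.1 and 68.7 CPM in those of control mice (log2 difference of effects -0.92 ± 0.17; edgeR adjusted p = 0.00579). Its level was thus higher in knockout mice in both classes, and by more in other T cells. Klrd1, Klri2 and Serpinb9, the inhibitor of granzyme B, had the same sign, with -0.70 ± 0.15, -2.38 ± 0.45 and -0.91 ± 0.21. Without control 2 the count of calls was 17. Klrc1 missed the threshold in 6 of 13 alternatives, among them without knockout 2, control 1 or control 2 (edgeR adjusted p = 0.179, 0.101 and 0.474) and in CD8 cells, where the log2 value was -0.30 (edgeR adjusted p = 0.994). Klrd1, Klri2 and Serpinb9 missed it in 8, 5 and 9 of 13; without control 1 they stood at -0.56, -1.68 and -0.60 (edgeR adjusted p = 0.269, 0.41 and 0.467), and without control 2 or knockout 1 none of the 3 passed either (edgeR adjusted p = 0.0681 to 0.765). Serpinb9 also missed it without knockout 2 (edgeR adjusted p = 0.189).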

How the data were processed

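Both libraries of each of the 4 mice were analysed. The deposited values are UMI counts per gene and cell, not normalized, and contig tables per barcode; Cell Ranger 8.0.1, the GRCm39 build, Seurat 5.0.1 and R 4.4.1 are named per the submitters' processing notes. Cells with 200 or more genes and no more than 10% of UMIs mitochondrial were kept. Counts were summed per mouse and class and tested with edgeR 4.0.16 in R 4.3.3 (TMM factors, filterByExpr, quasi-likelihood test, Benjamini-Hochberg adjustment over all genes tested, threshold 0.05), with the mouse as a term where classes were compared within mice. SEs were taken as the log2 value over the square root of F. The scripts were checked on simulated data. CPM are shares of the summed counts scaled to 1e+06, with no further factor.

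The members and gene lists were chosen with earlier results of these data known. Named genes were the 10 largest called changes in each direction with the same sign in all mice and at least 50 CPM, up to 4 called genes of each list by p, and a fixed set; some genes were added for the text after their values were seen, and 1 that the rule names is not reported here. Doublets were called per library with Scrublet (scanpy 1.11.5, an expected 0.8% per 1000 cells) and kept, with an alternative that left them out. Shares were compared by exact permutation, and thinned values used 1000 UMIs a cell, leaving out shallower cells. The alternatives were DESeq2 1.42.0, RLE factors, other filters, a gate of 2 UMIs, cells with an alpha chain, CD8 cells, a replicate block and leaving out each mouse. P-values measure the spread between these mice. Replicate numbers come from the titles and nothing in the labels pairs mice by them.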

Additional observations from a re-analysis of the deposited data

Results flagged for a closer look

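The test of the difference itself called genes that include the following, with values given as the log2 knockout effect in NK-receptor T cells minus that in other T cells by edgeR. The more positive effects were 4.33 for Ccl1, 3.13 for Klrb1b, 1.65 for Bcl2a1d, 1.58 for Fcer1g, 1.5 for Itgax, 1.48 for Lag3, 1.43 for Fabp5, 1.42 for Gm4956, 1.39 for Tyrobp and 1.36 for Pmaip1. The more negative effects were -5.16 for Retnlg, -4.81 for Klra4, -2.12 for Hdc, -1.98 for Acod1, -1.5 for S100a8, -1.34 for Fgf13, -1.28 for Trbv14, -1.11 for Cxcl2 and -0.996 for Klhl6. Fcer1g had 1469.7 and 1462 CPM in NK-receptor T cells of knockout mice and 1687 and 1492 CPM in those of control mice, and 196 and 193 CPM in other T cells of knockout mice and 622 and 704 CPM in those of control mice. Its difference thus lay in the other T cells, where macrophage marker RNA was also lower in knockout mice; the part of that RNA was not tested. Retnlg, Hdc and S100a8 are neutrophil markers, and neutrophil genes summed to 423 and 77.7 CPM in NK-receptor T cells of knockout mice and 1655 and 3700 CPM in those of control mice.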

How the results depend on the processing

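The differences in share kept their sign in every alternative run on them. The difference in share between genotypes, 7.13 percentage points, was 3.39 in cells thinned to equal depth, a move larger than its pooled SD between mice of 2.41. It ranged over 4.88 to 9.37 when 1 mouse was left out. With 1 mouse left out the CD8 difference ranged over -27.4 to -19.7 and the expansion difference over -26.9 to -20.4. The CD8 difference was -16.6 in cells with an alpha chain. The other alternatives moved each difference by less than its own pooled SD, which was 7.16 for CD8 and 11.9 for expansion. The count against other T cells, 881, was 508 to 1111 with 1 mouse left out, 361 in CD8 cells and 490 at equal depth. The count between genotypes, 209, was 447 with no filter on low counts, 106 with DESeq2, 37 without doublets, 91 with a gate of 2 UMIs, 86 in cells with an alpha chain, 31 in CD8 cells, and 203 to 580 with 1 mouse left out, the highest without control 1 and 332 without control 2. With the replicate block it was 133, and same-numbered mice deviated together with r = 0.027 across 8187 genes. From 2 mice of each genotype this correlation cannot show whether same-numbered mice shared a batch, and the labels do not say. The count against invariant NKT cells, 122, was 241 with no filter, 71 with DESeq2 and 131 to 200 with 1 mouse left out. The count of differing genotype effects, 52, was 118 with no filter, 10 with DESeq2, 24 without doublets, 88 with a gate of 2 UMIs, 28 with an alpha chain, 29 in CD8 cells, 17 to 94 with 1 mouse left out, and 19 in cells with at most 1 chain of each kind, a choice made after seeing the data. TRBV calls, 4, were 0 to 2 with 1 mouse left out, 0 over cells, 0 with a gate of 2 UMIs (4 segments at an unadjusted p under 0.05) and 1 with an alpha chain. Signs turned for Tet2 between genotypes without doublets (0.0261), and for the difference in genotype effect of S100a8 without doublets (1.28) and with a gate of 2 UMIs (0.0731), Trbv14 in CD8 cells (2.54) and Cxcl2 in CD8 cells (0.42); none passed the edgeR test there, and the cause was not tested. With 2 mice of each genotype no exact test of a share can pass the threshold, and in the 74 to 82 cells of each control mouse depth limits low genes.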
